A study of Mus musculus with 6 samples.

Results

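The messenger RNAs of 10 neuropeptide precursors were followed in the cerebral cortex of ageing mice. The genes were Npy, Cck, Crh, Tac1, Tac2, Penk, Pdyn, Adcyap1, Cort and Nts, chosen by name as 10 of the 55421 genes in the count tables, and their levels were compared between 24 and 6 months of age. RNA-seq was performed on the cortex of 6 wild-type male C57BL/6J mice, of which mice 10, 11 and 17 were 6 months old and mice 2, 4 and 5 were 24 months old. The animals were anaesthetised with isoflurane and killed by cervical dislocation, and the dissected cortex was frozen and powdered. Each library was made from 10 ng of total RNA of 1 mouse with a low-input kit. Every library therefore mixed all cortical areas, layers and cell types, and a lower level of an mRNA can mean fewer cells of a type or less RNA per cell, which cannot be told apart here. The p-values below measure the spread between mice.

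Neuropeptides are made as long precursors that enter the secretory pathway, are cut by prohormone convertases, trimmed and often amidated inside dense-core vesicles, and are released during sustained firing to act on G protein-coupled receptors. In the cortex most of these precursors are made by inhibitory interneurons, and the peptides serve as labels of interneuron classes: neuropeptide Y and cortistatin are found in cells that overlap with somatostatin neurons, and tachykinin 1 in part of the parvalbumin neurons. Cholecystokinin is made both by a class of interneurons and by many pyramidal cells, and PACAP, the product of Adcyap1, mainly by excitatory neurons.

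The upstream sequence of 3 members is shown because they cover abundant and less abundant members: Npy and Cck as the most abundant precursors, and Tac1 as a member that fell with age. The sequences are those of RefSeq on GRCm38.p6, read 5′ to 3′ on the strand of the gene, and end at the base before the annotated start, except that the Tac1 sequence stops where the GENCODE gene begins. Npy lies on the plus strand at chr6:49822460-49822709, Cck on the minus strand at chr9:121495695-121495944 and Tac1 on the plus strand at chr6:7554811-7554878. Capitals mark the CCAAT box and the letters TGACG, the core of the cyclic AMP response element TGACGTCA, each on either strand (ATTGG and CGTCA on the other).
Npy: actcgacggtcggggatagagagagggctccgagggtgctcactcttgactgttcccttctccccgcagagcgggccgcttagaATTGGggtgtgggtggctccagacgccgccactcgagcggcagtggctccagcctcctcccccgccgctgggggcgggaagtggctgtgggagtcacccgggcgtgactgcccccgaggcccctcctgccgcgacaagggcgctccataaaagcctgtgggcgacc
Cck: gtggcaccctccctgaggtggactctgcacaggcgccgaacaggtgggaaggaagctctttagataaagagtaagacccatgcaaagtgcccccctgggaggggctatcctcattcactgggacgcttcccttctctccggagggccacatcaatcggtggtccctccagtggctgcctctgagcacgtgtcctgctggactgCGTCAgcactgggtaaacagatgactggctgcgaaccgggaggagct
Tac1: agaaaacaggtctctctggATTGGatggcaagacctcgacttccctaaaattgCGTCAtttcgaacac
The RefSeq table held 10 windows of 250 bases for 8 of the 10 members. Crh and Penk were not matched. The full element TGACGTCA was in 0 of the 10 windows, against 1.55% of the 32851 windows of all genes in the table. Its core TGACG was in 6 of the 10, those of Cck, Tac1, Cort, Nts and both of Adcyap1, against 17.8% of all windows, and in Cck it lay 47 bases before the start. The windows of Adcyap1 overlap and share 1 copy. The CCAAT box was in 5 of the 10 (33.8% of all windows) and the letters TATAAA in 1, an Adcyap1 window (12.4%). These are matches of letters and not sites of binding.

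The precursors covered a wide range of abundance. In TPM, the deposited unit that corrects for transcript length, the mean over the 6 mice was 721 for Npy, 445 for Cck, 137 for Penk, 44.4 for Pdyn, 33.4 for Crh, 30.3 for Cort, 23.2 for Tac1, 14.2 for Tac2, 11.5 for Adcyap1 and 0.696 for Nts. Npy ranked 151 among all genes by mean TPM and Nts 20991. The order of neighbours held in all 6 mice for Npy over Cck, Cck over Penk, Penk over Pdyn, Pdyn over Crh, Cort over Tac1, Tac1 over Tac2 and Adcyap1 over Nts. Crh and Cort were not separated, Crh being the higher in 3 of the 6 mice, and Tac2 was above Adcyap1 in 5 of the 6. The summed TPM of the 10 precursors was 1450, 1461 and 1664 in the 6-month-old mice 10, 11 and 17 and 1451, 1180 and 1557 in the 24-month-old mice 2, 4 and 5. Npy made up 47.0% to 54.6% of that sum.

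**Figure D1:**
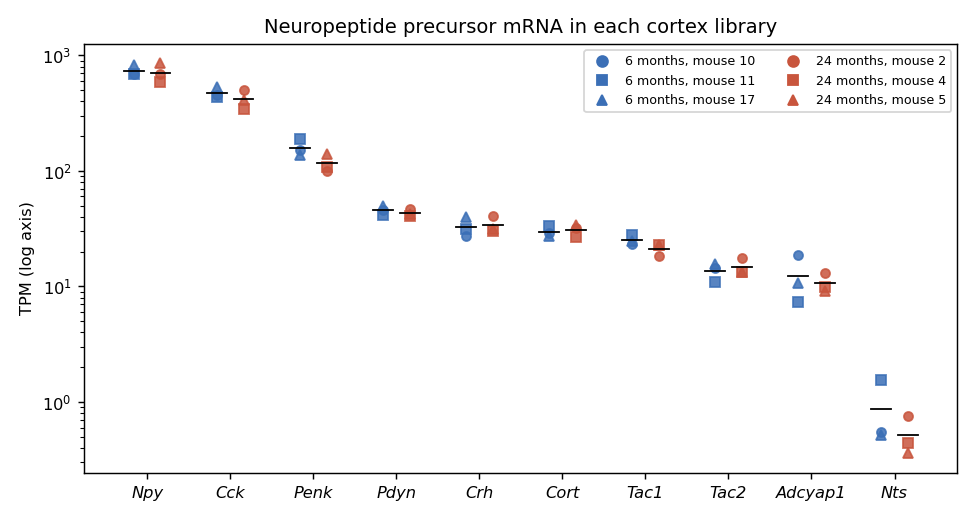
TPM of each precursor (log axis) in every library, ordered by mean level, with 6-month-old mice in blue, 24-month-old mice in red and a black bar at the mean of each age. The family runs from 721 TPM for Npy to 0.696 TPM for Nts. The ages overlap for 9 of the 10 genes, Tac1 being the exception by a narrow gap.

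With age, Penk and Tac1 were lower and the other 8 precursors were not called. Levels in CPM, the counts relative to library size scaled by the TMM method, are used for this comparison. The quasi-likelihood test of edgeR was run over 32905 genes with at least 10 counts in all, and genes were called at a false discovery rate (FDR) of 10%, a level chosen with it known that this test called 0 genes at 1%. Of the 10 members 2 were called lower and 0 higher, where 8.33% of all genes tested were called lower and 10.0% higher. Most of the genes called higher were weakly expressed: among the 15761 genes with a mean of at least 1 CPM, 17.3% were called lower and 2.43% higher, and 9 of the members, all but Nts, belong to these. A count of 2 in 9 is thus close to the background of expressed genes. At the 1% FDR used in the study no member and 0% of all genes were called by this test. By the same test 10096 genes had an unadjusted p under 0.05, Penk and Tac1 among them. The paper does report genes past 1% FDR, with edgeR after a filtering step that was not applied here. It does not name the test within edgeR. By edgeR's likelihood ratio test 5.18% of genes and 0 of the 10 members passed 1% FDR, a count that does not set the members apart from that share.

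Each log2 fold change sets 24 against 6 months, and its value rests on the scaling. The median over the 9 members of at least 1 CPM was -0.20, beside -0.14 over all genes of that level. Scaling by library totals moved the latter by 0.19, to 0.05, the genes called lower from 2742 of 6041 to 323 of 4436, and the members' median to -0.0051. With TMM, all 10 members had a negative log2 fold change; with library totals 5 of the 9 did.

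Penk and Pdyn encode the opioid peptide precursors, proenkephalin for the enkephalins and prodynorphin for the dynorphins. Penk (ENSMUSG00000045573.9, GRCm38 chr4:4133531-4138819, minus strand) had 2173, 2988 and 2094 counts in mice 10, 11 and 17 and 1389, 1590 and 2060 in mice 2, 4 and 5. Scaled, these were 70.5, 86.5 and 63.9 CPM at 6 months and 42.8, 46.0 and 60.5 CPM at 24 months. All 24-month-old mice lay below all 6-month-old mice, by a narrow gap between mice 5 and 17, and in TPM that gap closed, mouse 5 having 141 and mouse 17 having 138 TPM. Penk fell from 73.6 ± 11.6 to 49.8 ± 9.46 CPM (SD, n = 3 mice per age), a log2 fold change of -0.57 with a 95% interval of -0.91 to -0.22 (edgeR quasi-likelihood test, FDR = 0.0624). Relative to the median gene of at least 1 CPM its log2 fold change was -0.42. With library totals it was -0.38 and not called (FDR = 0.130). The call also rested on single mice: it was kept without mouse 17 or mouse 5, and the FDR was 0.143 to 0.246 without mouse 10, 11, 2 or 4, where the log2 fold change stayed between -0.60 and -0.39. Groups that did not overlap, with 24 months lower, were found for 2 of the 10 members in CPM, Penk and Tac1, and for 16.2% of all genes.

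Pdyn had 38.2, 33.6 and 40.6 CPM in mice 10, 11 and 17 and 35.2, 30.8 and 32.0 CPM in mice 2, 4 and 5. The ages overlapped. Its log2 fold change was -0.20 with an interval of -0.44 to 0.05 (FDR = 0.242 by the same test), so a decrease as large as that estimated for Penk lies outside its interval, although the difference between the opioid precursors was not itself tested. Pdyn was also among the steadier members, with a pooled SD of 0.121 in log2 CPM within an age, at percentile 46.7 of the 5057 genes of like level (mean CPM within 2-fold). Penk had 0.244, at percentile 85.2 of 4407 genes.

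The tachykinin precursors are Tac1, which encodes substance P and neurokinin A, and Tac2, which encodes neurokinin B. Tac1 (ENSMUSG00000061762.12, GRCm38 chr6:7554879-7565834, plus strand) had 22.6, 26.6 and 23.8 CPM in mice 10, 11 and 17 against 16.2, 20.2 and 20.5 CPM in mice 2, 4 and 5. The ages did not overlap, in CPM or in TPM. In TPM the gap was narrow, mouse 5 having 22.9 and mouse 10 having 23.2 TPM. The share of all genes apart in TPM was not computed. Tac1 fell from 24.3 ± 2.04 to 19.0 ± 2.36 CPM (SD, n = 3 mice per age), a log2 fold change of -0.36 with an interval of -0.64 to -0.08, and it passed the threshold barely (edgeR quasi-likelihood test, FDR = 0.0982). With library totals it was -0.17 and its FDR 0.371, and the FDR was 0.117 by the likelihood ratio test and 0.138 by DESeq2. The call was kept without mouse 5 and lost without any other mouse, with log2 fold changes of -0.41 to -0.25 over the 6 mice left out.

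Tac2 had 5.71, 4.29 and 6.11 CPM at 6 months and 6.41, 4.86 and 4.79 CPM at 24 months, with the highest and the lowest value in mice of different ages. The means were 5.37 and 5.35 CPM. Its interval of -0.42 to 0.41 still allows changes of the size seen in Tac1.

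**Figure D2:**
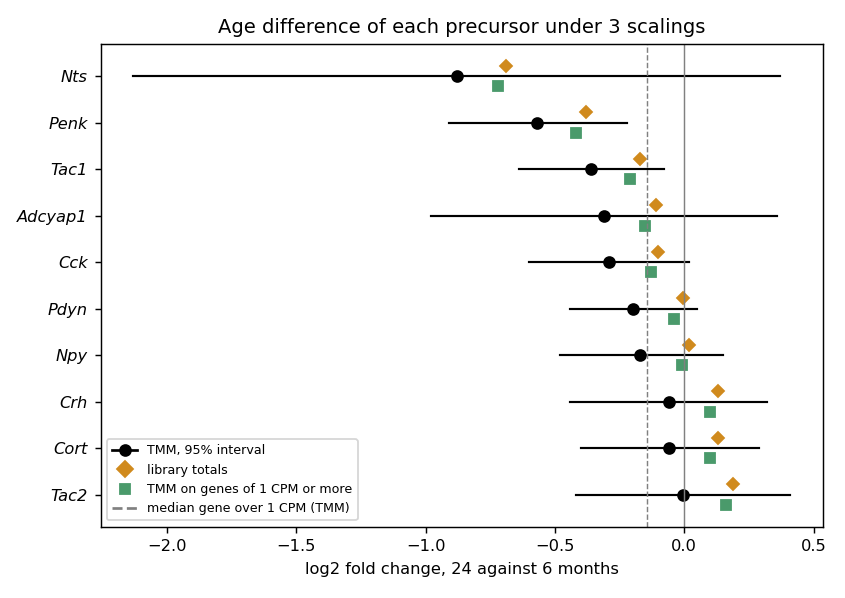
Log2 fold change of each precursor at 24 against 6 months, with TMM scaling (black points, bars are 95% intervals), library totals (orange) and TMM computed on genes of at least 1 CPM (green), and the median gene over 1 CPM with TMM as a dashed line. Penk at -0.57 and Tac1 at -0.36 are the members whose interval excludes 0, and both other scalings move every member to the right.

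Npy and Cort mark interneurons that overlap with the somatostatin class. Npy (GRCm38 chr6:49822710-49829507), the precursor of neuropeptide Y and the first of the sequences above, had 111, 110 and 133 CPM in mice 10, 11 and 17 and 102, 87.5 and 126 CPM in mice 2, 4 and 5. Mouse 5 lay above mice 10 and 11. The log2 fold change was -0.17 with an interval of -0.48 to 0.15 (FDR = 0.442, edgeR quasi-likelihood test). Cort, whose product cortistatin acts on the somatostatin receptors, had 5.58, 6.31 and 5.25 CPM at 6 months and 5.73, 4.74 and 6.02 CPM at 24 months. The ages were interleaved, with an interval of -0.40 to 0.29. Cort was steady, its pooled SD of 0.159 lying at percentile 31.8 among genes of like level.

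Cck (GRCm38 chr9:121489824-121495694), the cholecystokinin precursor, had 170, 160 and 196 CPM in mice 10, 11 and 17 and 171, 117 and 141 CPM in mice 2, 4 and 5. Mice 4 and 5 lay below all 6-month-old mice and mouse 2 lay among them. The log2 fold change was -0.29 with an interval of -0.60 to 0.02 (FDR = 0.182, edgeR quasi-likelihood test).

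Crh encodes corticotropin-releasing hormone, which in the cortex is made by interneurons. It had 10.3, 11.6 and 14.9 CPM at 6 months and 14.0, 10.4 and 11.0 CPM at 24 months. The ages overlapped fully, with an interval of -0.44 to 0.32.

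Adcyap1 was the most variable of the abundant members. It had 20.3, 7.79 and 11.4 CPM in mice 10, 11 and 17 and 13.0, 9.86 and 8.96 CPM in mice 2, 4 and 5. The highest and the lowest value were both at 6 months, mouse 10 standing apart from the rest, and the pooled SD of 0.526 lay at percentile 95.5 of the 4120 genes of like level. The log2 fold change was -0.31 with an interval of -0.98 to 0.36, and without mouse 10 it was 0.14.

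Nts, the neurotensin precursor, was at the edge of detection. It had 6, 19 and 6 counts in mice 10, 11 and 17 and 8, 5 and 4 counts in mice 2, 4 and 5. Only mouse 11 stood above the rest, and the log2 fold change of -0.88 (interval -2.13 to 0.37) was -0.12 without it. Receptor genes of the sense organs (1542 olfactory, vomeronasal, taste and trace amine receptor genes) were used here as a gauge of background. They had 0.683 to 0.830 counts per exonic kilobase at 6 months and 1.80 to 2.78 at 24 months. The paper reports sensory perception as the main process among genes that rose with age. Whether the counts of these receptor genes are background or expression was not tested. At their density up to 62.1% of the Nts counts of a library would be accounted for. For the other 9 members the share was at most 2.75%, in Adcyap1.

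The decrease of Penk was next set against GABAergic genes of the same library, which removes the scaling from the comparison. The summed level of Gad1, Gad2 and Slc32a1, which make and load GABA, was 583.7, 594.2 and 531.2 CPM in mice 10, 11 and 17 and 349.1, 472.4 and 557.1 CPM in mice 2, 4 and 5. Mouse 2 was the lowest of the 6 and mouse 5 lay within the range of 6 months. Most of this sum was Gad1, with a mean of 386 CPM beside 105 for Gad2 and 23.6 for Slc32a1. Gad1 had a log2 fold change of -0.34, was not called, and had 248 CPM in mouse 2. The ratios below therefore mainly follow Gad1, and ratios to Gad2 or Slc32a1 alone were not computed. Per 1000 CPM of these genes Penk had 121, 146 and 120 at 6 months and 123, 97.3 and 109 at 24 months. The ages overlapped through mouse 2, and the log2 ratio differed by -0.24 (exact permutation test, two-sided, p = 0.3, n = 3 mice per age, where 0.1 is the smallest p this design allows).

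For Tac1 the log2 ratio to the GABAergic genes differed by -0.03 (p = 0.7, exact permutation test). Over the 10 members the ratios to GABAergic genes differed by -0.41 to 0.33, all with overlapping ages, and the smallest p was 0.2, for Cort, unadjusted over 10 comparisons.

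**Figure D3:**
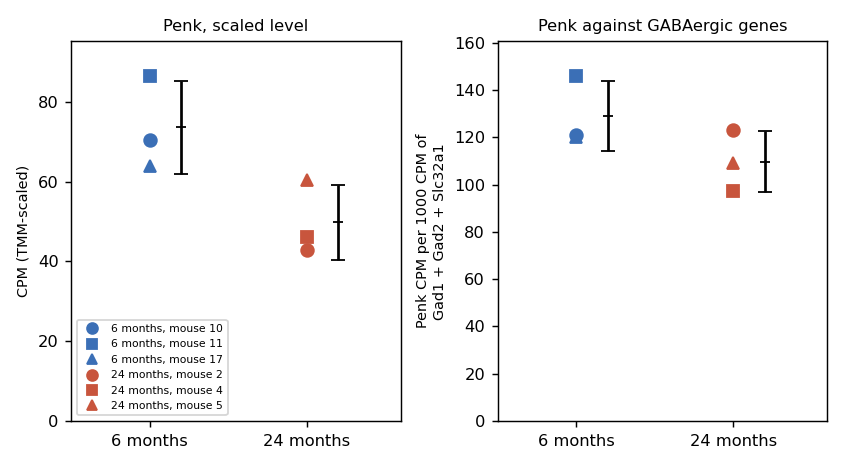
Penk in each mouse as TMM-scaled CPM (left) and per 1000 CPM of Gad1, Gad2 and Slc32a1 (right), with mean and SD in black beside the mice. The ages are apart in CPM, at 63.9 to 86.5 against 42.8 to 60.5, and overlap in the ratio, at 120 to 146 against 97.3 to 123.

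Penk, Pdyn and Tac1 are also abundant in the striatum, which lies under the dissected cortex. Of 12 striatal marker genes 12 were tested, and 0 were at 0 in every library. Their summed level was 192 to 216 CPM at 6 months and 162 to 191 CPM at 24 months, which do not overlap. This was not particular to them. The summed GABAergic markers (2030 to 2120 against 1550 to 2000 CPM) and glutamatergic markers (3520 to 3850 against 2920 to 3360 CPM) did not overlap either. The astrocyte sums below were also apart. Of the 12 striatal markers 1 was called lower and 1 higher, beside 8.33% and 10.0% of all genes tested. Among the 9 striatal markers with a mean of at least 1 CPM, 1 was called lower and 0 higher. The shares among all genes of that level were 17.3% and 2.43%. Of the defining receptors of striatal projection neurons, Drd2 had 1 to 12 counts in a library and Drd1 had 49 to 170. The part of striatal tissue in the decrease of Penk was not tested. All 12 of the glutamatergic cortical markers and all 18 of the GABAergic markers had a mean of at least 1 CPM. Of these, 3 and 1 were called lower and 0 and 0 higher, beside 17.3% lower and 2.43% higher among all genes of that level. The oligodendrocyte markers summed to 2370 to 3710 CPM at 6 months, and to 1258, 3049 and 4051 CPM in mice 2, 4 and 5. The activity-regulated genes summed to 2500 to 4180 CPM at 6 months, and to 4419, 1289 and 1072 CPM in mice 2, 4 and 5. Both ranges were wider at 24 months, where mouse 2 stood apart from mice 4 and 5. Astrocyte markers summed to 1820 to 1900 and 1730 to 1790 CPM, microglial markers to 433 to 437 and 411 to 446 CPM. Markers of neighbouring regions were lower in level, at 66.5 to 73.6 and 55.4 to 70.7 CPM for thalamus, 44.7 to 49.9 and 29.2 to 44.8 CPM for hippocampus and 2.33 to 2.96 and 2.20 to 3.45 CPM for hypothalamus.

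Other precursors did not share a direction, with a negative log2 fold change in 4 of the 11 expressed ones. Of 46 further neuropeptide precursor genes 34 were tested and 11 had a mean of at least 1 CPM, with a median log2 fold change of 0.05 over these 11. None of the 34 was called lower and 3 were called higher, a share near the 10.0% of all genes tested. These were Nmu, Nms and Iapp, named here after their values were seen. They had 0 to 3 counts in a 6-month library and 3 to 8 in a 24-month library, and the density of sensory receptor genes gives 1.49 to 2.78 counts for them at 24 months.

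Of 28 neuropeptide receptors and binding proteins 28 were tested, 6 were called lower and 3 higher, beside 8.33% and 10.0% of all genes tested. All 6 called lower were among the 20 with a mean of at least 1 CPM, a level at which 17.3% of all genes were called lower, and these 20 had a median log2 fold change of -0.39. Without mouse 10, 11 or 4 none was called lower, and without mouse 2 only 1. Somatostatin receptors, which also bind cortistatin, made up 3 of the 6: Sstr2 fell from 33.6 ± 6.27 to 17.8 ± 0.310 CPM (SD, n = 3 mice per age), a log2 fold change of -0.91 (edgeR quasi-likelihood test, FDR = 0.0514). Its values were 34.5, 39.3 and 26.9 CPM in mice 10, 11 and 17 and 18.2, 17.7 and 17.5 CPM in mice 2, 4 and 5, so the ages were far apart. Sstr4 fell by 0.85 (FDR = 0.0610, edgeR quasi-likelihood test) and Sstr1 by 0.59 (FDR = 0.0526) on the log2 scale. Sstr2, Sstr4 and Sstr1 were the 3 receptors still called lower with library totals, at -0.72, -0.67 and -0.41. Sstr3 was not called and its sign depended on the scaling, at -0.09 with TMM and 0.10 with library totals.

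Among the receptors of neuropeptide Y, Npy2r, the presynaptic receptor, fell by 0.75 and Npy5r by 0.41 on the log2 scale (FDR = 0.0832 and 0.0897, edgeR quasi-likelihood test). Npy1r was at -0.23 and was not called (FDR = 0.157). Vipr1, which binds PACAP as well as VIP, fell by 0.38 (FDR = 0.0793). The PACAP receptor Adcyap1r1 was at -0.10 and Vipr2 at -0.48, neither called. Vipr2 had 19, 74 and 27 counts in mice 10, 11 and 17 and 27, 35 and 25 in mice 2, 4 and 5. The density of sensory receptor genes gives 8.05 to 12.4 of its counts at 24 months.

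The receptors for the peptides of Penk, Pdyn and Tac1 were not called lower. Oprd1, the delta opioid receptor that binds enkephalins, was at -0.28 (FDR = 0.342, edgeR quasi-likelihood test), and Oprk1, the kappa receptor of dynorphin, was at -0.42 (FDR = 0.398), with 2.00 CPM in mouse 2 and 5.62 to 6.71 CPM in the other mice. Tacr1, the substance P receptor, was at -0.56 (FDR = 0.193) on 34 to 66 counts at 6 months and 28 to 40 at 24 months. The density of sensory receptor genes gives 4.44 to 5.39 and 11.7 to 18.0 of these. The part of background in the value of Tacr1 was not tested. The mu receptor Oprm1 was called higher (log2 fold change 0.99, FDR = 0.0571) on 19 to 20 counts at 6 months and 33 to 46 at 24 months, of which 14.5 to 22.3 are given by the density of sensory receptor genes. Cckar and Npy6r, the other receptors called higher, had 0 to 2 counts at 6 months and 2 to 10 at 24 months. For Cckar that density gives 6.64 to 10.2 counts at 24 months, where 8 to 10 were counted, and for Npy6r 4.63 to 7.13, where 2 to 7 were counted. These 3 are named after their values were seen.

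For the remaining peptides, the cholecystokinin receptor Cckbr was at -0.16, Crhr1 at -0.09 and the binding protein Crhbp at -0.04, none called. The neurotensin receptor Ntsr1, a marker of deep-layer pyramidal cells, was at -0.76 (FDR = 0.121, edgeR quasi-likelihood test), with 9.44, 15.4 and 6.17 CPM in mice 10, 11 and 17 and 4.93, 7.54 and 5.82 CPM in mice 2, 4 and 5. Ntsr2, mainly of astrocytes, was at -0.07 and Sort1 at 0.03.

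Of 35 genes that process and release peptides, all with a mean of at least 1 CPM, 10 were called lower and 0 higher, beside 17.3% and 2.43% of all genes of that level, their median log2 fold change being -0.25. The 10 became 5 without mouse 17 and 0 without mouse 10, 11, 2 or 4. Ptprn2, a membrane protein of dense-core vesicles, fell by 0.79, and Chga, the granule protein chromogranin A, by 0.59 on the log2 scale (both FDR = 0.0518, edgeR quasi-likelihood test). Chga had 153, 173 and 149 CPM in mice 10, 11 and 17 and 92.7, 102 and 121 CPM in mice 2, 4 and 5, without overlap. Pcsk1, a prohormone convertase that cuts proenkephalin, fell by 0.52 (FDR = 0.0615), and Scg2, secretogranin II, by 0.41 (FDR = 0.0567). With library totals 2 of the 10 were called, Ptprn2 at -0.60 and Chga at -0.40. By the same scaling 13 of the 20 receptors and 18 of the 35 processing genes kept a negative log2 fold change, against 19 and 31 with TMM.

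**Figure D4:**
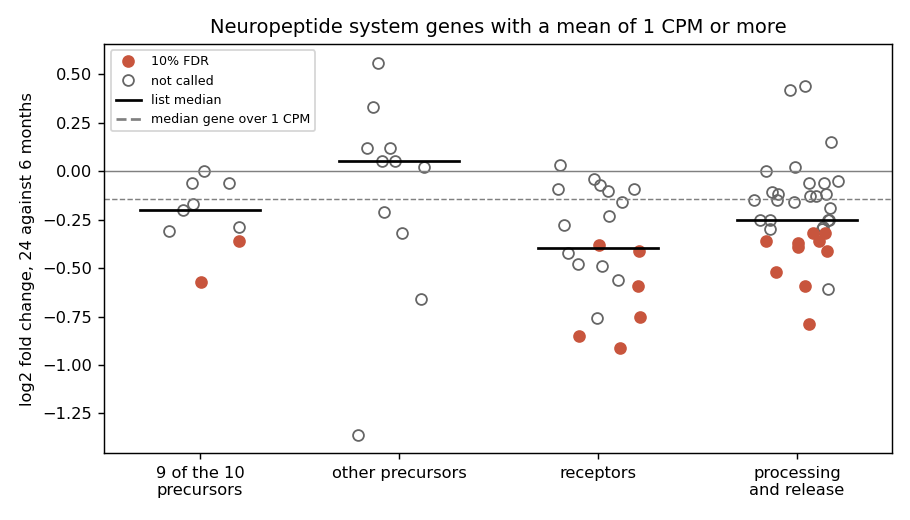
Log2 fold change at 24 against 6 months of the genes with a mean of at least 1 CPM in 4 lists (9 of the 10 precursors, 11 other precursors, 20 receptors and 35 processing and release genes), filled where called at 10% FDR, with list medians as black bars and the median of all genes over 1 CPM dashed. The receptors have the lowest median, at -0.39, and the other precursors lie around 0.05.

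The genes whose pattern over the 6 mice was most like that of Penk, by the root mean square difference of centred log2 CPM among 15760 genes of at least 1 CPM, were Zfp146 (0.0486), Zfp449 (0.0552) and Dcp1a (0.0652), where the median gene differed by 0.323. With 6 mice of 2 ages this likeness is a description.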

How the data were processed

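RNA-seq of the cortex of 6 mice was analysed. The authors trimmed the reads with Trim Galore 0.6.4, mapped them to GRCm38 (GENCODE vM23) with STAR 2.7.3a and counted reads on exons with featureCounts of Subread 2.0.0, and deposited a count and a TPM value per gene and mouse. The stated options split multi-mapping reads, but 100% of the deposited count values were whole, and no rounding was needed. No strand option is stated, so an antisense gene over Penk, with 3 to 17 counts, could share reads with it. Totals were 29495379 to 36494240 counts, and TMM factors were 0.921 to 0.946 at 6 months and 1.04 to 1.10 at 24 months.

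Counts were tested with edgeR 4.0.16 (R 4.3.3), by the quasi-likelihood test without covariates, with Benjamini-Hochberg FDR over all genes tested. Alternatives were the likelihood ratio test, DESeq2 1.42.0 with its Wald test, 3 other scalings, 2 other filters and each mouse left out. Ratios and sequence matches used Python 3.11.15. Gene positions are those of GENCODE vM21. Ratios to glutamatergic genes and some marker genes are not reported here. The members, the gene lists and the 10% FDR level were chosen with earlier results of these data known. Named list genes were those past 10% FDR with a mean of at least 1 CPM, at most 4 a list and direction, and receptors of the members' peptides of at least 1 CPM.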

Additional observations from a re-analysis of the deposited data

How the results depend on the processing

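Calls of this family rested on scaling and on single mice. The 2 members called lower became 1 by the likelihood ratio test, by DESeq2, with DESeq2 size factors and without a filter (Penk in each), and 0 with library totals, with TMM on genes of at least 1 CPM and with filterByExpr, which dropped Nts. Leaving out 1 mouse gave 0 to 2, with 0 without mouse 10, 11, 2 or 4. Over all genes the calls were 0 without mouse 10 or 4, 1 without 11, 176 without 2, 2476 without 17 and 7997 without 5, beside 6041, and DESeq2 called 3048, the likelihood ratio test 7498, filterByExpr 1538 and no filter 4014. Other precursors called lower went from 0 to 1 by the likelihood ratio test, by DESeq2 and without a filter (0 to 1 over left-out mice), and those called higher from 3 to 5, 0 and 1 in that order and to 0 with filterByExpr (0 to 3). Receptors called lower went from 6 to 3 with library totals or TMM on genes of at least 1 CPM and to 2 with filterByExpr (0 to 7), and those called higher from 3 to 1 with filterByExpr (0 to 6). Processing genes called lower went from 10 to 2 with these 3 settings and to 6 without a filter (0 to 10). The cause was not tested.

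The sign turned for some of the members that were not called, while Cck, Pdyn and Nts stayed negative in every setting that tested them. With library totals Npy was at 0.02, Crh at 0.13, Tac2 at 0.19 and Cort at 0.13. With TMM on genes of at least 1 CPM, Crh was at 0.10, Tac2 at 0.16 and Cort at 0.10, and with filterByExpr at 0.06, 0.11 and 0.06. Tac2, at -0.0038, was at 0.0030 by DESeq2, 0.0029 with its size factors and 0.03 without a filter. Over left-out mice Crh ranged from -0.19 to 0.11, Tac2 from -0.14 to 0.11, Adcyap1 from -0.55 to 0.14 and Cort from -0.12 to 0.08. Penk (-0.73 to -0.39) and Tac1 (-0.41 to -0.25) stayed negative over left-out mice. So did members that were not called: Npy (-0.31 to -0.0018), Cck (-0.43 to -0.12), Pdyn (-0.25 to -0.11) and Nts (-1.22 to -0.12). A kept sign thus does not set Penk and Tac1 apart. Subtracting the sensory receptor background moved Nts from a log2 ratio of mean CPM of -0.87 to -1.77 and no other member by more than its SD. No paired analysis was possible because the ages share no mouse numbers.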
